A study of Mus musculus with 5 samples.

Results

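The cytochrome P450 system was followed through 10 genes in mouse liver tumours: 7 of the Cyp3a family (Cyp3a11, Cyp3a13, Cyp3a16, Cyp3a25, Cyp3a41a, Cyp3a44 and Cyp3a59), 2 of the Cyp1a family (Cyp1a1 and Cyp1a2), and Por, which encodes their electron donor. They were chosen by symbol, and all 10 were found among the 22287 genes of the table. These genes and the gene lists below were chosen with earlier results of these data known, so their counts are descriptions only. The tumours came from C57BL/6 mice treated for 5 months with the carcinogen DEN and with CCl4, which injures hepatocytes, in wild-type (WT, 2 libraries) and lnc-CTHCC-/- (KO, 3 libraries) genotypes. Both genotypes share the strain and the carcinogen regimen, so no untreated or non-tumour liver stands beside them. The labels give neither sex nor age, nor how the long non-coding RNA lnc-CTHCC was deleted, nor whether the libraries of a genotype came from separate animals. P-values may therefore measure only a technical spread.

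Cytochromes P450 are haem enzymes of the endoplasmic reticulum that insert an oxygen atom into their substrates. Each cycle needs electrons from NADPH, passed on by the reductase that Por encodes. Cyp3a enzymes oxidise a very wide range of drugs and steroids and are induced through the xenobiotic receptors PXR (Nr1i2) and CAR (Nr1i3). Cyp1a enzymes oxidise planar aromatic compounds and are induced through the aryl hydrocarbon receptor (Ahr) with its partner Arnt. In mouse liver, Cyp3a16, Cyp3a41a and Cyp3a44 are known as predominantly female forms.

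Values are FPKM, fragments scaled to gene length and library size. Comparisons of levels between genes or libraries are approximate, since median-ratio size factors still differed between libraries and some Cyp3a genes share sequence. The depth of the libraries is unknown. The hepatocyte markers, with albumin (Alb) and transferrin (Trf) the most abundant, summed to between 127915 and 175077 FPKM, both extremes being WT libraries, and all 11 were above the expression filter of a mean of 1 FPKM. By median-ratio size factors WT 1 stood lowest (0.880), against 0.974 to 1.10 in the other libraries. Y-linked Ddx3y was at 3.97 FPKM in WT 1 and 6.73 to 10.6 FPKM in the others, and Eif2s3y (6.29 to 12.1 FPKM), Uty (1.15 to 2.51 FPKM) and Kdm5d (1.02 to 1.66 FPKM) were present in every library too. Xist was not analysed here.

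Cyp3a11, the main Cyp3a enzyme of mouse liver, was lower in every KO library than in either WT library, and so were Cyp3a25 and the scarce Cyp1a1. The same held for 5.29% of all genes tested and 6.18% of all genes above 0 in any library. The KO mean of Cyp3a11 was 0.429 times the WT mean. Cyp3a13, Cyp3a59, Cyp1a2 and Por overlapped between genotypes, and the female forms Cyp3a16, Cyp3a41a and Cyp3a44 were near the bottom of the range in both. No member passed the test (0 of 6 tested by limma with Benjamini-Hochberg adjustment, smallest adjusted p = 0.822). At an unadjusted p under 0.05 there was 1 member, Cyp3a11, with lower values in KO. Over all 10132 genes tested, 0.00987% passed, a single gene (Onecut1), and 3.23% had an unadjusted p under 0.05, 1.45% with a lower value in KO.

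**Figure D1:**
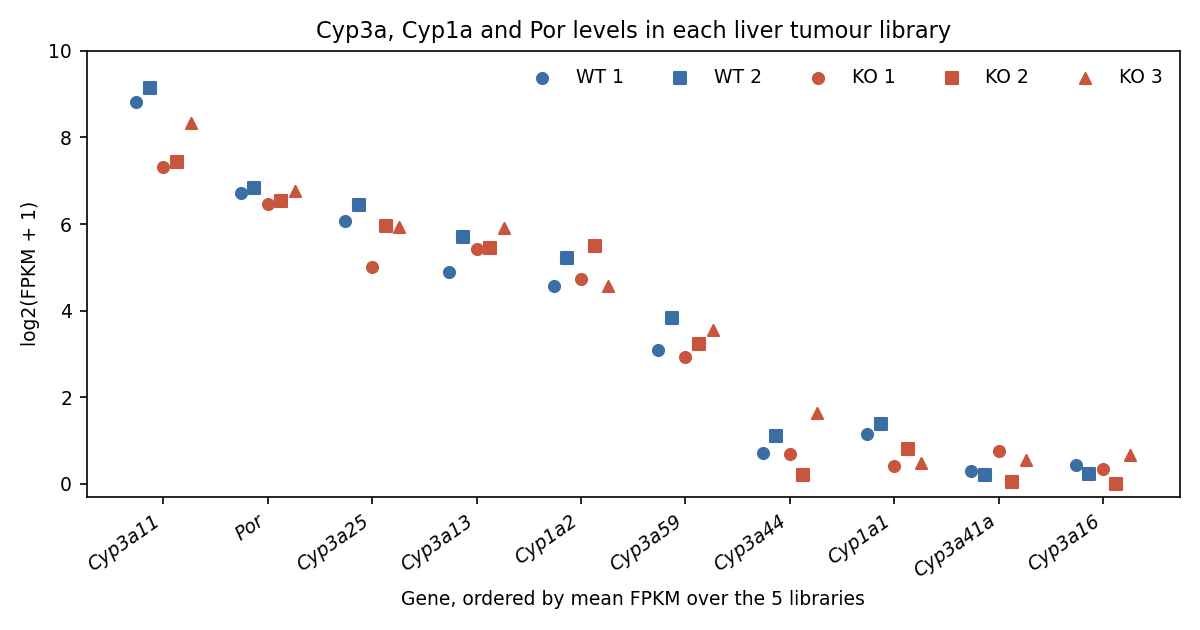
Level of each of the 10 genes in each library, as log2(FPKM + 1), for WT (blue) and KO (red) liver tumours; each point is 1 library. Cyp3a11 stands highest and splits by genotype, from 450.4 and 559.8 FPKM in WT to 159 to 320.3 FPKM in KO, while Cyp3a44, Cyp1a1, Cyp3a41a and Cyp3a16 have means under 1 FPKM.

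On GRCm38, 6 of the 7 Cyp3a members lie in a cluster on chromosome 5 that runs from Cyp3a16 (145436309 to 145469723, minus strand) through Cyp3a41a, Cyp3a44, Cyp3a11 (145854426 to 145879964, minus strand) and Cyp3a25 (145977194 to 146009618, minus strand) to Cyp3a59 (146079257 to 146113287, plus strand). Cyp3a13 lies apart on the same chromosome (137892932 to 137921619, minus strand), and so does Por (135670033 to 135735326, plus strand). Cyp1a2 (57676937 to 57683703, minus strand) and Cyp1a1 (57687928 to 57703824, plus strand) are neighbours on chromosome 9, transcribed away from each other. All 10 are annotated as protein-coding. Por overlaps 2 annotated genes on the opposite strand (Gm43091, a lincRNA, and Gm16061, a processed pseudogene), and Cyp3a13 a processed pseudogene on its own strand (Gm15502). Whether the authors' quantification used strand is not known, so reads of such overlaps cannot be told apart.

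The Cyp3a transcripts resemble each other, which bears on how their reads were assigned. Of all 50-base stretches in the longest coding transcript of Cyp3a41a, 93.7% were also found in Cyp3a41b, a near copy that was listed at 0 in every library. Values of Cyp3a41a and Cyp3a41b are therefore uncertain. Cyp3a25 shared 25.0% of its stretches with Cyp3a59, and Cyp3a44 shared 26.5% of its own with other genes, most of all Cyp3a41a (11.5%). In Cyp3a11 14.8% were shared with any other gene, at most 6.32% with a single one (Cyp3a41a). Cyp1a2 shared 4.97% with Cyp1a1, and Cyp3a13 and Por shared none.

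The sequences before the transcription starts fall into the same branches. Over the 250 bases before the RefSeq start, Cyp3a25 and Cyp3a59 were 95.2% identical in a global alignment, and Cyp3a44 and Cyp3a16 94.4%. Cyp3a11 was 76.0% identical to Cyp3a44 and 58.4% to Cyp3a25. Shown are the abundant Cyp3a11, its scarce relative Cyp3a44, Cyp3a25 of the other branch, and the neighbours Cyp1a1 and Cyp1a2, from RefSeq on GRCm38.p6, 5′ to 3′ on the gene's strand. Bases that GENCODE vM21 places in an exon were left off, so the Cyp3a11 sequence ends 111 bases and the Cyp1a2 sequence 49 bases before the RefSeq start. Capitals mark matches, on either strand, to AGGTCA or AGTTCA (hexamers bound by nuclear receptors), GCGTG (the core bound by the aryl hydrocarbon receptor and Arnt) or ATTGAT (the core bound by Onecut factors).
Cyp3a11: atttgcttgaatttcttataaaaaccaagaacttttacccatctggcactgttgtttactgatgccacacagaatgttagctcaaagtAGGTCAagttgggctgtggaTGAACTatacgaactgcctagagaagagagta
Cyp3a44: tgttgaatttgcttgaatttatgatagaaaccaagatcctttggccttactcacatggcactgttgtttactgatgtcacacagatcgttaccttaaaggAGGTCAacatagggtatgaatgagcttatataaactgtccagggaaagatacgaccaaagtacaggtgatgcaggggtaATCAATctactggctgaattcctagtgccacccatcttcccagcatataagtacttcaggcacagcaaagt
Cyp3a25: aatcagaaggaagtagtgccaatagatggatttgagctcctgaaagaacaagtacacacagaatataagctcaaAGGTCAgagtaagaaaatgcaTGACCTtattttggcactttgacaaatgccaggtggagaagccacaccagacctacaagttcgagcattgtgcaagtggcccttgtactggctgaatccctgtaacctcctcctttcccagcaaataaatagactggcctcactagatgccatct
Cyp1a1: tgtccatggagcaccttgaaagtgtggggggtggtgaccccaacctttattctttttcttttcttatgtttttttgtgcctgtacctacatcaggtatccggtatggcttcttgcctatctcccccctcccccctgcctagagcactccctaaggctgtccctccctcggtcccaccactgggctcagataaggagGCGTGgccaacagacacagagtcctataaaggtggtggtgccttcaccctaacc
Cyp1a2: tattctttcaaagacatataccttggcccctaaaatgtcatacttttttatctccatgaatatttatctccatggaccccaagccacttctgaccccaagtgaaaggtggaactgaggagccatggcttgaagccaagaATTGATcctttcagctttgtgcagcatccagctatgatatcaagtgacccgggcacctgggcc
The window of Cyp3a11 (chr5:145879965-145880104, minus strand) held AGGTCA 162 bases and, on the other strand, AGTTCA 142 bases before the start, counted to the base farthest from it. Cyp3a25 (chr5:146009619-146009868, minus strand) held AGGTCA once on each strand, at 176 and 155 bases. Cyp3a44 (chr5:145805875-145806124, minus strand) held AGGTCA at 150 and ATTGAT, on the other strand, at 71 bases. Cyp1a1 (chr9:57697363-57697612, plus strand) held GCGTG at 54 bases, and Cyp1a2 (chr9:57683704-57683905, minus strand) held ATTGAT at 111 bases. Of 32851 mouse promoters read over the same 250 bases and both strands, 14.0% held AGGTCA, 11.8% AGTTCA, 28.2% GCGTG and 6.72% ATTGAT. The motifs do not overlap each other in these windows, and a match is a run of letters only.

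Among the Cyp3a enzymes, Cyp3a11 was the most abundant, with a mean over the 5 libraries of 332 FPKM, at the 99.4th percentile of the table. It was at 450.4 FPKM in WT 1, 559.8 FPKM in WT 2, 159 FPKM in KO 1, 171 FPKM in KO 2 and 320.3 FPKM in KO 3. All KO libraries were below both WT libraries, with KO 3 nearest to them. The WT mean was 505 ± 77.4 FPKM (SD, n = 2) and the KO mean 217 ± 89.8 FPKM (SD, n = 3). On the log2(FPKM + 1) scale the difference was -1.28 (SE 0.293, 95% confidence interval -1.95 to -0.62, not adjusted for the number of genes). It ranked 22nd of the genes tested by unadjusted p (0.00191), with a limma adjusted p = 0.822. A difference below -1 was found in 0.424% of the genes tested. In these bulk tumours, fewer cells that express the gene and less of its RNA per cell cannot be told apart.

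Cyp3a25, a hepatic Cyp3a enzyme of the other branch, was at 66.2 and 85.5 FPKM (WT) against 30.95, 61.1 and 60.3 FPKM (KO). The genotypes did not overlap, but KO 2 and KO 3 lay close below WT 1. Its difference was -0.62 (SE 0.295, 95% confidence interval -1.29 to 0.05, limma adjusted p = 0.999). Without KO 1 it was -0.31, so that library carried much of it. With its relatives Cyp3a57 and Cyp3a59 added to it, a sum chosen after seeing the data, the difference was -0.57 (limma adjusted p = 0.999).

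Cyp3a13, known from both liver and intestine, went the other way from Cyp3a11 in its means. It was at 28.5 and 50.9 FPKM (WT) against 41.7, 42.8 and 59.3 FPKM (KO), and the genotypes overlapped. The difference was 0.30 (SE 0.264, limma adjusted p = 0.999), and it was -0.10 without WT 1, whose value was the lowest of all. Of the 7 markers of intestinal epithelium, Sis, Cdx1, Cdx2 and Muc2 were listed at 0 in every library and Lct at no more than 0.01 FPKM. Apoa4 (1131 to 5378 FPKM) and Fabp2 (23.1 to 45.7 FPKM), which liver expresses as well, made up nearly all of that list's sum.

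Cyp3a59 was at 7.5 and 13.2 FPKM (WT) against 6.61, 8.44 and 10.8 FPKM (KO). Its difference of -0.21 (SE 0.271, limma adjusted p = 0.999) turned to 0.16 without WT 2. The levels of this gene and of Cyp3a25 are uncertain as far as reads of their common stretches were divided between them.

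The female forms were scarce. Cyp3a44 was at 0.64 and 1.16 FPKM (WT) against 0.61, 0.16 and 2.11 FPKM (KO), so its highest and lowest values were both in KO libraries. Cyp3a41a was at 0.24 and 0.16 FPKM (WT) against 0.7, 0.03 and 0.46 FPKM (KO). Cyp3a16 was at 0.36 and 0.17 FPKM (WT) against 0.28 FPKM in KO 1 and 0.59 FPKM in KO 3, and it was listed at 0 in KO 2. All of these genes were lowest in KO 2, and none reached the expression filter. With no filter their log2 differences were -0.07 for Cyp3a44, 0.19 for Cyp3a41a and 0.0067 for Cyp3a16, with limma adjusted p of 0.997 or above.

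Summed per library, the Cyp3a genes reached 554 and 711 FPKM (WT) against 241, 283 and 454 FPKM (KO). The sum averaged 633 ± 111 FPKM (SD, n = 2) over the WT libraries against 326 ± 113 FPKM (SD, n = 3) over those of KO, a ratio of WT over KO of 1.94. Cyp3a11 made up 81.3% and 78.7% of it in WT and 66.3%, 60.2% and 70.6% in KO. Cyp3a13 made up 5.15% and 7.15% in WT and 17.3%, 15.1% and 13.1% in KO. These shares did not overlap between genotypes, but both depend on the Cyp3a11 level, and the FPKM of Cyp3a13 itself overlapped. Within a library, where scaling cancels, Cyp3a11 stood 15.8 and 11.01 times above Cyp3a13 in WT and 3.82, 3.98 and 5.40 times above it in KO. The same ratio against Cyp3a25 was 6.81 and 6.55 in WT and 5.15, 2.79 and 5.31 in KO. These shares and ratios are descriptions and were not tested.

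**Figure D2:**
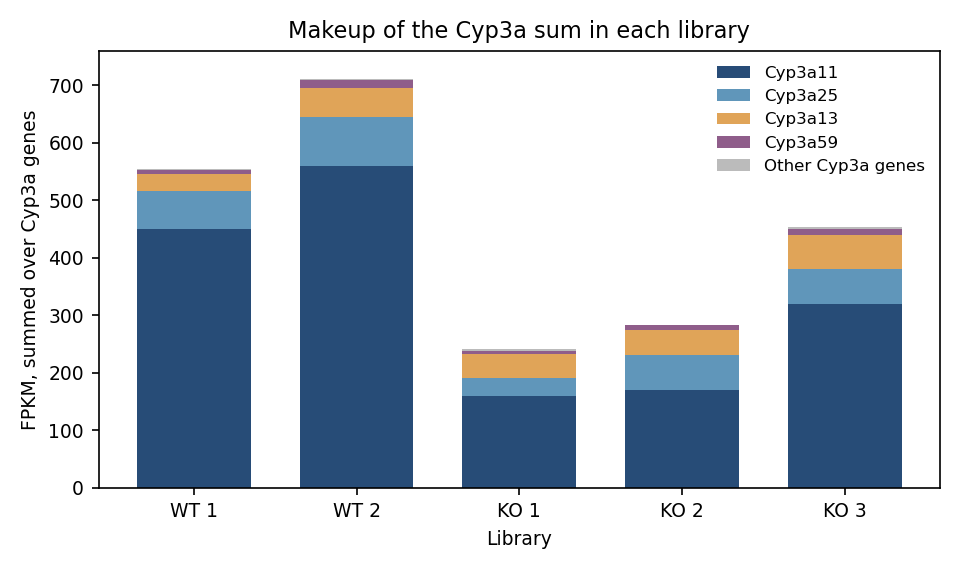
Summed FPKM of all Cyp3a genes in each library (bars, from 0), divided by gene. Cyp3a11 is the largest part everywhere, and the bars stand at 554 and 711 FPKM for WT against 241, 283 and 454 FPKM for KO, while the Cyp3a13 part is between 28.5 and 59.3 FPKM high.

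The order of levels was the same at the top in all libraries, with Cyp3a11 above Por and Por above Cyp3a25 in 5 of 5. Cyp3a25 was above Cyp3a13 in 4 libraries, the exception being KO 1, and Cyp3a13 above Cyp1a2 in 4, the exception being KO 2. The levels of these neighbours were not tested against each other. Cyp1a2 was above Cyp3a59, and Cyp3a59 above Cyp3a44, in 5 of 5. Below them, the order of Cyp3a44, Cyp1a1, Cyp3a41a and Cyp3a16 changed from library to library.

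The Cyp1a neighbours had unlike patterns over the libraries. Cyp1a2, a constitutive hepatic enzyme that oxidises caffeine and aromatic amines, was at 22.8 and 36.3 FPKM (WT) against 25.5, 43.9 and 22.7 FPKM (KO). Its highest and lowest values were both in KO libraries, and the genotype means were nearly level (29.6 ± 9.56 FPKM, SD, n = 2, and 30.7 ± 11.5 FPKM, SD, n = 3). The difference was 0.03 (SE 0.301, 95% confidence interval -0.65 to 0.72), which leaves room for a change of either sign.

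Cyp1a1, the strongly inducible form, was at 1.22 and 1.6 FPKM (WT) against 0.34, 0.75 and 0.39 FPKM (KO). Every KO library was below both WT libraries, at a WT mean of 1.41 ± 0.269 FPKM (SD, n = 2) and a KO mean of 0.493 ± 0.224 FPKM (SD, n = 3). Its mean over the 5 libraries (0.86 FPKM) was under the filter. With no filter, its log2 difference was -0.70 (SE 0.16, limma adjusted p = 0.947). Cyp1a2 stood 18.7 and 22.7 times above Cyp1a1 in WT and 75.1, 58.5 and 58.2 times above it in KO. At such low levels, and with unknown depth, the precision of the Cyp1a1 values is not known.

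Por, the reductase, was at 104 and 112 FPKM (WT) against 86.9, 90.8 and 107.9 FPKM (KO). KO 3 lay between the WT libraries, and the difference was -0.19 (SE 0.169, 95% confidence interval -0.57 to 0.19, limma adjusted p = 0.999). It had the narrowest interval of the 6 members tested. Cyp3a11 stood 4.33 and 4.98 times above Por in WT and 1.84, 1.88 and 2.97 times above it in KO.

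**Figure D3:**
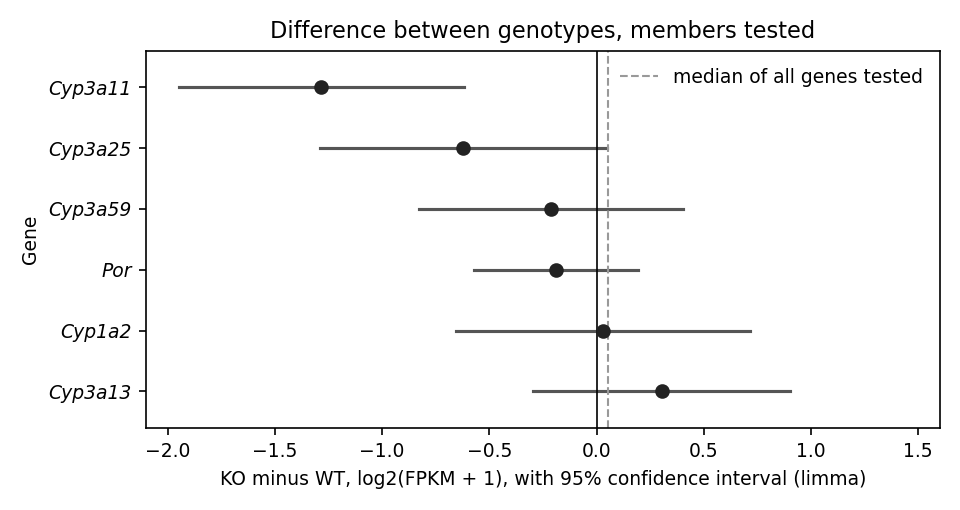
Difference between genotypes (KO minus WT, log2(FPKM + 1)) for the 6 members tested, with 95% confidence intervals from limma that are not adjusted for the number of genes; the dashed line is the median of all genes tested (0.05). The interval of Cyp3a11 (-1.95 to -0.62) lies below 0 and those of the other members include 0.

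Of the 6 members tested, the KO mean was lower for 4 and higher for 2 (median difference -0.20), against 38.6% lower among all genes tested (median 0.05). After median-ratio rescaling, 49.3% of all genes and 5 of the 6 members were lower. Without WT 1, 60.3% of all genes and all 7 members then tested (Cyp3a44 passed the filter there) were lower, and without WT 2, 26.3% of all genes and 3 of 6 members. In 2 of the 6, Cyp3a11 and Cyp3a25, all KO libraries were below both WT libraries, as in 5.29% of all genes tested. Cyp1a1, and Cyp3a57 outside the members, showed the same below the filter. The share among all 16286 genes with any value above 0, those past the filter included, was 6.18%. The authors' deposited table gives Cyp3a11 a log2 fold change of -1.22 with a false discovery rate of 0.0779, and Cyp1a1 one of -1.52 with a rate of 0.196. In the authors' deposited table no member has a rate under 0.05, as 0.162% of its genes do.

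Leaving out single libraries kept the Cyp3a11 difference between -1.60 (without KO 3) and -1.10 (without KO 1). With a KO library left out, the limma adjusted p was 0.516 or above. The libraries of WT differed from each other in most members. WT 2 was above WT 1 in all 6 members tested, by most in Cyp3a13 and Cyp3a59. Without WT 1, the median difference of all genes was -0.07, and without WT 2 it was 0.16.

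**Figure D4:**
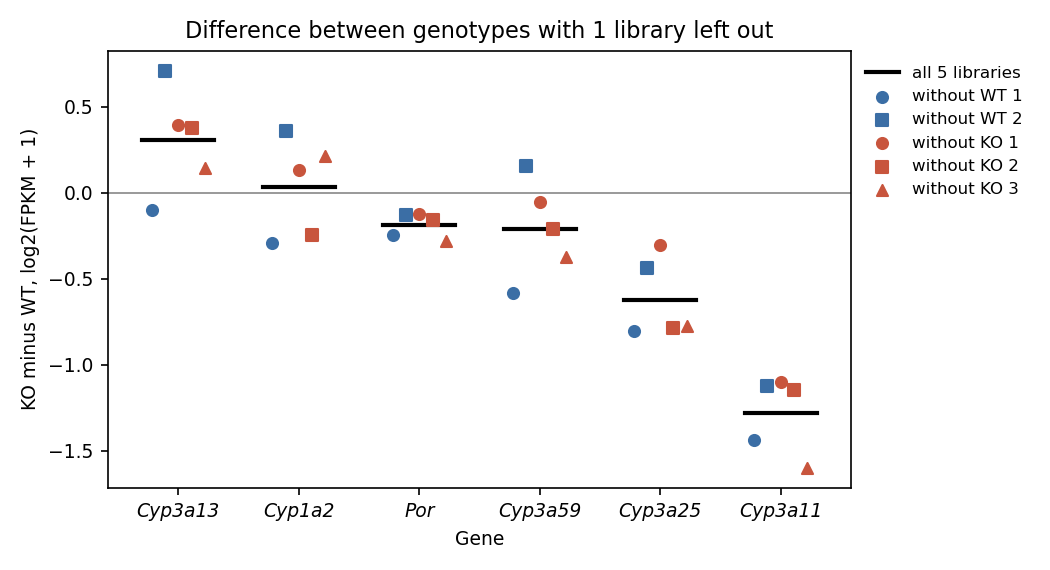
Difference between genotypes for the 6 members tested with all 5 libraries (black bars) and with 1 library left out (points; colour and shape give the library left out). Cyp3a11 stays between -1.60 and -1.10, while Cyp3a13, Cyp1a2 and Cyp3a59 cross 0 when a WT library or, for Cyp1a2, KO 2 is left out.

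Regulators of these genes were compared next. Beside the counts of this list and those below, 38.6% of all genes tested were lower in KO. An unadjusted p under 0.05 was found in 3.23% of all genes tested. Of 17 regulators tested, the KO mean was higher for 10 and lower for 7 (median 0.08), and none passed the test, with 1 at an unadjusted p under 0.05. The split turned with the WT library left out: 10 of 17 were lower without WT 1 (median -0.05) and 4 of 16 without WT 2 (median 0.19). Nr1i2, the receptor PXR, was at 13.9 and 19.7 FPKM (WT) against 11.5, 14.8 and 17.2 FPKM (KO). Nr1i3, the receptor CAR, was at 10.3 and 2.39 FPKM (WT) against 8.56, 6.21 and 8.04 FPKM (KO), so that the WT libraries spanned the KO values. Ahr spanned 1.87 to 6.95 FPKM over the WT libraries against 2.94 to 4.24 FPKM over those of KO, and Arnt 6.29 to 10.3 against 8.61 to 10.9 FPKM. All of these overlapped between genotypes.

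The regulator with the smallest p was Cebpa, a hepatocyte transcription factor, at 79.6 and 47.8 FPKM (WT) against 100.8, 107.9 and 81.9 FPKM (KO), a difference of 0.63 (limma adjusted p = 0.999). Nr0b2, the corepressor SHP, had a difference of -0.98, Nfe2l2, the oxidative stress factor NRF2, of 0.39 and Cebpb of -0.35, all overlapping between genotypes.

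Other target genes of PXR and CAR showed both directions (10 of 17 tested lower and 7 higher, median -0.20), and none passed the test, with 2 at an unadjusted p under 0.05. Among all genes tested these shares were 38.6% lower and 3.23% at an unadjusted p under 0.05. Without WT 2, 7 of 17 were lower (median 0.05). Abcb1a, the drug efflux pump P-glycoprotein, was at 6.34 and 6.06 FPKM (WT) against 3.24, 3.19 and 3.98 FPKM (KO), a difference of -0.69 (SE 0.186, limma adjusted p = 0.999). Ces2a, a carboxylesterase, was at 33.5 and 44.1 FPKM (WT) against 18.8, 29.1 and 25.9 FPKM (KO) (difference -0.64). All KO libraries were below both WT libraries in these 2 genes and in Gadd45b. That is 3 of the 17 tested, against 5.29% of all genes tested. In 1 of the 17 all KO libraries were above both WT libraries.

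Cyp2b10, the classical CAR target, was scarce and lower in each KO library, at 0.57 and 0.73 FPKM (WT) against 0.2, 0.04 and 0.37 FPKM (KO). Papss2, which makes the sulfate donor of sulfotransferases, was higher in each KO library, at 28.6 and 33.8 FPKM against 36.1, 35.1 and 50.8 FPKM. Akr1b7, an aldose reductase relative, was at 26.1 FPKM in WT 1 and 3.45 to 4.55 FPKM in all other libraries, WT 2 included. Its difference was -1.11 with all libraries and -2.41 without WT 2, which leaves only WT 1 in its group.

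Of the other aryl hydrocarbon receptor targets, 3 of 4 tested were lower (median -0.07, none at an unadjusted p under 0.05). Without WT 2, 0 of 4 were lower (median 0.12), and without WT 1 the median was -0.26. Tiparp, a poly-ADP-ribose polymerase, was at 2.1 and 3.15 FPKM (WT) against 2.32 to 2.65 FPKM (KO), and Nqo1, a quinone reductase, at 15.0 and 15.9 FPKM (WT) against 10.8 to 29.2 FPKM (KO). Ugt1a6a, a glucuronosyltransferase, and Slc46a3, a lysosomal transporter, had differences of -0.12 and -0.11. Cyp1b1, the other Cyp1 enzyme of the table besides the members, was at 0.33 and 0.65 FPKM (WT) against 0.42 to 0.79 FPKM (KO).

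Among genes of haem synthesis and electron supply, 9 of 13 were higher and 4 lower (median 0.05), none past the test and 1 at an unadjusted p under 0.05. After median-ratio rescaling 8 of 13 were lower (median -0.0088), and 6 of 13 were lower without WT 1, KO 2 or KO 3. The gene with the smallest p was Alas1, the rate-limiting enzyme of hepatic haem synthesis. It was at 152 and 169.8 FPKM (WT) against 205, 270.1 and 246 FPKM (KO), above both WT libraries in every KO library (difference 0.57, SE 0.178, limma adjusted p = 0.999). Cyb5a, cytochrome b5, which can pass electrons to Cyp3a enzymes, was at 457 and 469 FPKM (WT) against 441 to 545 FPKM (KO).

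**Figure D5:**
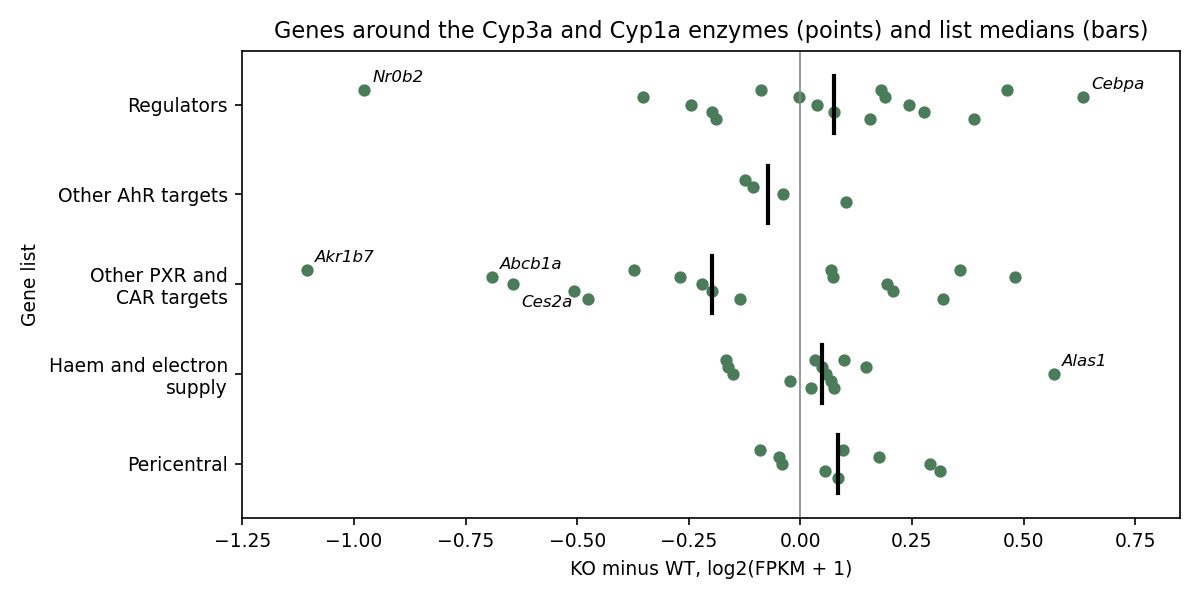
Difference between genotypes (KO minus WT, log2(FPKM + 1)) of each gene tested in 5 lists around the Cyp3a and Cyp1a enzymes (points), with the median of each list (black bars). With all 5 libraries, medians lie between -0.20 and 0.08; Abcb1a, Ces2a and Akr1b7 stand lowest among the PXR and CAR targets, and Alas1 (0.57) stands apart from the other haem genes.

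Cyp1a2 and Cyp3a11 are known as pericentral genes of the liver lobule, so other pericentral genes were set beside them. Of 9 tested, 6 were higher and 3 lower in KO (median 0.08), with none at an unadjusted p under 0.05. Single libraries turned this split: 6 were lower without WT 1 (median -0.40) or KO 3 (median -0.19), 1 without KO 2 (median 0.35) and 2 without WT 2 (median 0.34). Cyp2e1, the ethanol-oxidising P450, ranged from 58.3 FPKM in KO 2 to 321 FPKM in KO 3, and Glul, glutamine synthetase, from 17.3 to 35.6 FPKM. Gulo, of vitamin C synthesis, and Aldh3a2, an aldehyde dehydrogenase, had differences of 0.31 and 0.29.

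Sex-biased genes were split as well. Female-biased genes were split (3 of 6 tested higher, median -0.07), with Cyp2b9 at 61.6 to 79.0 FPKM in all libraries. Male-biased genes were lower in 6 of 9 (median -0.20), with Cyp2d9 at 149.6 and 338 FPKM (WT) against 119 to 156 FPKM (KO). No gene of either list had an unadjusted p under 0.05. Both splits turned with single libraries. Of the male-biased genes, 3 of 9 were lower without WT 2 (median 0.21) and 4 without KO 2 (median 0.02). Of the female-biased genes, 5 of 6 were lower without KO 3 (median -0.38), 1 without WT 1 (median 0.20), 2 without KO 2 (median 0.23) and 2 of 5 without WT 2 (median 0.06).

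Acute phase and inflammatory genes mostly had lower means in KO (13 of 15 tested, median -0.24), 4 at an unadjusted p under 0.05 and none past the test. Among all genes tested, 38.6% had lower means, and 3.23% had an unadjusted p under 0.05, 1.45% with a lower value in KO. The count of lower means rested on WT 2, without which 7 of 15 were lower (median 0.0056). All KO libraries were below both WT libraries, WT 1 included, in 5 of the 15, against 5.29% of all genes tested. The summed level of the acute phase list was 10575 and 13263 FPKM (WT) against 9242 to 10321 FPKM (KO). Lcn2, lipocalin 2, had a difference of -1.01 (limma adjusted p = 0.893), and Orm2, Orm1 and Saa2 had differences of -2.46, -1.10 and -2.53. WT 2 stood far above all other libraries for Orm2 (103.5 FPKM against 3.81 to 17.7 FPKM) and Saa2 (128 FPKM against 1.33 to 8.78 FPKM). Saa1, of the same family, was at 5.91 and 100.1 FPKM (WT) against 3.29, 5.6 and 10.8 FPKM (KO). Without WT 1, which leaves only WT 2 in its group, the Saa1 difference was -3.87. Markers of T, NK and B cells had a lower sum in each KO library. That sum, mostly Igkc and Jchain of plasma cells, was 93.8 and 242 FPKM (WT) against 26.0 to 73.2 FPKM (KO), and those 2 of the 8 markers passed the filter, both with every KO library below both WT libraries. The T cell markers Cd3e, Cd3g and Cd8a, named after their values were seen, were at no more than 1.06 FPKM in any library. The part of these genes in the Cyp3a11 difference was not tested.

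Sums of the other marker lists overlapped between genotypes. Endothelial markers summed to 46.8 and 52.3 FPKM for WT and 49.6 to 79.5 FPKM for KO, with a higher KO mean in 6 of 6 (5 of 6 after median-ratio rescaling). Kupffer cell and macrophage markers summed to 37.3 and 47.7 FPKM for WT and 32.2 to 65.7 FPKM for KO, with a higher KO mean in 5 of 6 tested (3 of 6 without WT 1). Every KO library was above both WT libraries in 2 of 6 endothelial, 1 of 6 macrophage and 1 of 8 stellate cell markers tested. In 0 of these markers was every KO library below. Of all genes tested, 15.1% had no overlap in either direction. Over all libraries, stellate cell markers ranged from 81.2 to 140.2 FPKM, cholangiocyte markers, nearly all Spp1, from 149.8 to 423 FPKM, and neutrophil markers from 3.59 to 5.32 FPKM. Hepatocyte markers were split (5 of 11 with a higher mean in KO, 6 lower, median -0.0036). Set against albumin in the same library, Cyp3a11 stood at 0.00478 and 0.00749 of the Alb level in WT 1 and WT 2. In KO 1, KO 2 and KO 3 it stood at 0.00195, 0.00218 and 0.00386 of the Alb level. These ratios did not overlap, but they use the same Cyp3a11 values and are no separate evidence.

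Genes with the most similar pattern over the 5 libraries were found by the Euclidean distance between centred log2(FPKM + 1) values, a description that uses the genotype difference itself. Nearest to Cyp3a11 was Hal, the enzyme that starts histidine breakdown, at a distance of 0.241, with 46.0 and 58.6 FPKM (WT) against 14.1, 18.1 and 28.3 FPKM (KO). Cxcl1, a chemokine (0.412), Abcb11, the bile salt export pump (0.537), Defb1, a defensin (0.537), and Cdhr2, a microvillus cadherin (0.558), followed. Nearest to Cyp1a2 were Fes, a tyrosine kinase (0.2), Cd34 (0.226), Ugt1a6b, a glucuronosyltransferase (0.229), Acat2, of acetyl-CoA metabolism (0.26), and Scpep1, a carboxypeptidase (0.282). In these as in Cyp1a2, KO 2 had the highest value.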

How the data were processed

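Trizol RNA was sequenced, per the labels' protocols. Listed without a role in the submitters' processing notes are HISAT2, StringTie, bcl2fastq 2.0, limma, DESeq2 and the build mm10 (annotation and strand setting not given in the sources used here). Deposited was a table that holds FPKM per library, made by the authors, rounded to 2 decimals, and the authors' mean FPKM, log2 fold change, p-value and false discovery rate, per the file headers. Groups and replicates came from sample titles; lnc-CTHCC itself was not analysed here.

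The genotypes were compared on log2(FPKM + 1) for 10132 genes with a mean of at least 1 FPKM with limma 3.58.1 under R 4.3.3 (empirical Bayes with trend, two-sided, 3 residual degrees of freedom, Benjamini-Hochberg threshold 0.05), checked on simulated data. Fold changes on this scale understate low genes. Positions are GENCODE vM21 (GRCm38, as mm10); promoters are RefSeq (10 of 10 members matched). Identity was computed with Biopython 1.88; figures with matplotlib 3.10.9.

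Members and lists were chosen with earlier results of these data known. Named were all members, other Cyp3a and Cyp1 genes, fixed regulators, up to 4 genes per list by smallest p, abundant markers, and the 5 nearest patterns. Alternatives were other pseudocounts, filters, scalings and priors, summed Cyp3a genes, the replicate block and leaving out each library.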

Additional observations from a re-analysis of the deposited data

How the results depend on the processing

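No alternative but the replicate block put a member past the threshold. The count of genes past it, 1 with the settings used, was 0 with quantile normalization, median-ratio or common-sum rescaling, a pseudocount of 5, a filter at mean FPKM 5 or none, 3 with robust empirical Bayes, and 0 to 17 with 1 library left out (17 without WT 1). With a KO library left out, 0 members and 0 genes of the other lists passed. Leaving out WT 1 or WT 2 leaves 1 WT library, so counts of genes passing, over all genes or the other lists, are not given for those fits. The replicate numbers are shared by 2 pairs only, whose deviations correlated at 0.09 and -0.24, so they were not taken to pair the samples. With the replicate block 62 genes passed, among them 1 member, Cyp3a11 (-1.60, adjusted p = 1.19e-06), and 6 genes of the other lists (Saa1, Saa2, Orm1, Orm2, Igkc and Jchain). In that fit KO 3 does not enter the difference and 1 residual degree of freedom is left.

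Over all alternatives the difference stayed between -1.60 and -1.10 for Cyp3a11, between -0.80 and -0.31 for Cyp3a25 and between -0.28 and -0.13 for Por. Without 1 library, the range was -0.10 to 0.71 for Cyp3a13, -0.58 to 0.16 for Cyp3a59, -0.26 to 0.25 for Cyp3a44 and -0.29 to 0.36 for Cyp1a2. Directions that turned, none past the threshold, were Cyp3a13 without WT 1 (-0.10), Cyp3a59 without WT 2 (0.16), Cyp3a44 without KO 1 (0.013) or KO 2 (0.25), and Cyp1a2 without WT 1 (-0.29) or KO 2 (-0.25) and with median-ratio rescaling (-0.026). Leaving out a library changed the median of all genes from 0.05 to -0.07 without WT 1 and 0.16 without WT 2. Depth is unknown, so the precision of members under 1 FPKM cannot be given, and a design of 2 against 3 libraries limits every comparison.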
